A study of Mus musculus with 126 samples.

Results

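Mouse embryonic stem (ES) cells lacking DNA methyltransferases were compared with wild type cells while histone deacetylases were inhibited. The comparison rests on 4 RNA-seq libraries, 2 per group, of the 126 samples in the series, and was fitted together with the 4 RNA-seq libraries of the solvent control. All 8 libraries came from cells of the J1 strain, cultured on gelatin in medium with serum and LIF, the cytokine that keeps ES cells undifferentiated. Wild type cells were compared with triple knockout (TKO) cells that were Dnmt1-/-, Dnmt3a-/- and Dnmt3b-/-. Cells of both genotypes in the main comparison received the deacetylase inhibitor Trichostatin A (TSA) over 36 h, at a dose the labels give as 5 ng/µl, and the control groups received 0.0033% DMSO for the same time. The members were taken by the genotype and treatment in the sample labels, and the series design calls the 2 libraries of each group biological replicates. The labels do not say from how many clones the TKO cells were grown. The remaining 118 samples were not analysed here.

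Methylation of cytosine in CpG dinucleotides is written by Dnmt3a and Dnmt3b, is copied to new strands by Dnmt1, and represses transcription through reader proteins that can recruit histone deacetylases, as well as by altering the binding of transcription factors. TSA blocks class I and class II histone deacetylases and so raises histone acetylation. In ES cells, promoters of germline genes and of cancer-testis genes on the X chromosome are textbook targets of methylation-dependent silencing, and imprinted genes carry methylation on the copy from one parent. The genotype comparison under TSA therefore asks which genes differ with DNA methylation when deacetylation is blocked in both genotypes.

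Levels are given in normalised CPM, counts scaled to a common library size, and a gene was called at a Benjamini-Hochberg adjusted p below 0.05 in edgeR's quasi-likelihood test over 15822 genes. The targeted genes were read first. Dnmt1 was at 374 and 360 CPM in the wild type TSA libraries and at 123 and 128 CPM in the TKO TSA libraries. Dnmt3a was at 152 and 163 CPM against 30.0 and 39.1 CPM, and Dnmt3b at 378 and 343 CPM against 61.4 and 76.1 CPM. Both TKO libraries were below both wild type libraries for each gene, as they were for 4928 of all 15822 genes tested. They were above both for 5039, and every gene called under TSA was separated in either way. Such separation therefore adds nothing to a call. The reads that remain cannot be placed on exons from gene totals, so the deleted exons themselves were not checked. The summed level of 10 ES cell markers was 2327 and 2138 CPM in wild type TSA and 2414 and 2140 CPM in TKO TSA, so the groups overlapped. The summed level of 16 fibroblast markers was 195 and 209 CPM against 167 and 198 CPM, with Fap at 0. The summed level of 9 primitive endoderm markers was 27.2 and 31.7 CPM against 57.4 and 63.3 CPM, and that of 8 trophoblast markers was 81.1 and 85.7 CPM against 41.9 and 54.9 CPM, with Tpbpa and Prl3d1 at 0. The 7 neuron markers summed to 279 and 216 CPM against 300 and 323 CPM, and the 5 germ cell markers to 80.7 and 124 CPM against 319 and 320 CPM. Single markers did not always follow the sum of their type. Of 10 ES cell markers 3 were called higher and 1 lower, and of 5 germ cell markers 2 higher and 1 lower. Of the tested markers, 2 of 6 for neurons were higher and 1 lower, and 1 of 6 for trophoblast higher and 2 lower. For primitive endoderm 4 of 8 were higher and 0 lower, and for fibroblasts 2 of 12 higher and 2 lower. In such bulk samples fewer cells of a type and less RNA per cell cannot be told apart.

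Some stretches of chromosomes moved together with genotype, which was seen after the values were known. Windows of 40 neighbouring tested genes were followed in both treatments, and 14 of 385 full windows had medians beyond 0.25 on the log2 scale in the same direction in both, 8 of them on chromosome 8, 3 on chromosome 17, 2 on chromosome 15 and 1 on chromosome 12. On distal chromosome 8 (93099016 to 129234003), 186 of 311 genes were lower in TKO under TSA (59.8%), with a median log2 fold change of -0.57 in TSA and -0.57 in DMSO. On proximal chromosome 8 (3150922 to 11563250), 24 of 40 genes were lower, with medians of -0.58 and -0.51. The 480 genes between these stretches had a median of 0.06 in TSA, and 24 of them were lower (5.0%). On chromosome 17 (23741199 to 26976203), 41 of 120 genes were higher (34.2%), with medians of 0.40 in TSA and 0.39 in DMSO. Over chromosome 15 as a whole the median was -0.15 and 83 of 628 genes were lower (13.2%, beside 8.38% of all genes). The stretches of chromosomes 8 and 17 were chosen by the medians of their windows in both treatments. The genes between lie in windows that did not pass the limit. The medians and shares of the stretches, and the contrast with the genes between, are therefore shaped by that choice and are not a test. Whether the stretches come from the methyltransferase genotype or from the line cannot be told apart with these groups. Genes described below that lie in them are named as such, and their part in each result was not tested. Without the genes of chromosomes 8, 15, 17 and Y, 1413 genes were higher and 953 lower.

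**Figure D1:**
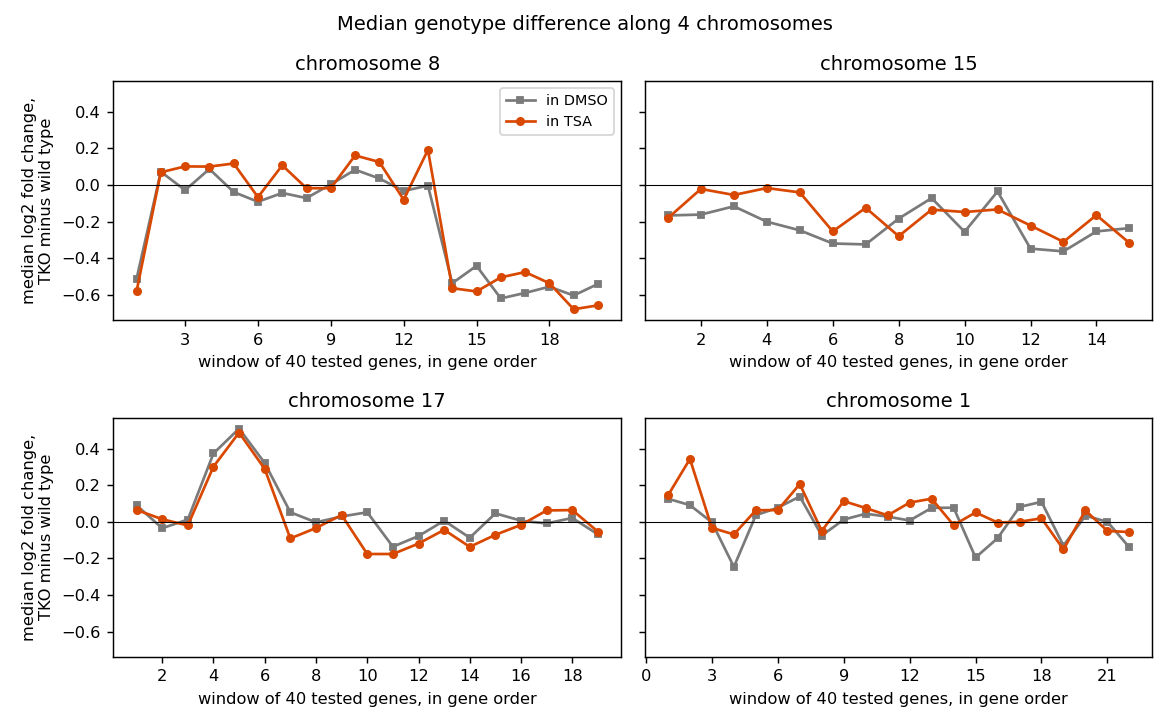
Median log2 fold change of TKO minus wild type (vertical axis) in successive windows of 40 tested genes in gene order (horizontal axis), for chromosomes 8, 15 and 17 and for chromosome 1 as an example outside them. Circles are the TSA libraries and squares the DMSO libraries, and the drop at both ends of chromosome 8 and the rise on chromosome 17 appear in both.

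Promoter sequences are shown for germline genes that stayed higher in TKO under TSA, because their CpG dinucleotides are the substrate of the enzymes that the TKO cells lack. They were taken from RefSeq (GRCm38.p6), reach from 250 bases before to 50 bases after the annotated start, and are written 5′ to 3′ on the strand of the gene in lower case with each CpG in capitals. Of 15822 tested genes, 12265 matched an entry (77.5%), which is too few for a comparison of promoter classes over all genes, and that comparison is void. Values over the 12265 promoters are printed below to describe the matched genes, and nothing is concluded from them for all tested genes. The germline list had 52 of 58 tested genes matched (89.7%). Magea5 and 1700080O16Rik, on the X chromosome, were added after their values were seen, as X-linked genes among the 10 largest increases. The Asz1 promoter lies at chr6:18109012-18109311 on the minus strand, that of Tdrd9 at chr12:111971309-111971608 on the plus strand, that of Fkbp6 at chr5:135349995-135350294 on the minus strand, and that of Dnmt3l at chr10:78042037-78042336 on the plus strand. The Tex19.1 promoter lies at chr11:121145893-121146192 on the plus strand, that of Tex101 at chr7:24672001-24672300 on the minus strand, that of Magea5 at chrX:155061504-155061803 on the minus strand, and that of 1700080O16Rik at chrX:51972723-51973022 on the minus strand.
Asz1: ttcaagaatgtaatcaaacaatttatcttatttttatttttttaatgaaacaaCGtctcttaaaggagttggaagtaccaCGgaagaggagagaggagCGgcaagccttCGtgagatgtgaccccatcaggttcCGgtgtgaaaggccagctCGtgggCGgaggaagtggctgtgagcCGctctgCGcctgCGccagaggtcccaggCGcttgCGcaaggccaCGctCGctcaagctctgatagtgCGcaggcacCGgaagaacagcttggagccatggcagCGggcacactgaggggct
Tdrd9: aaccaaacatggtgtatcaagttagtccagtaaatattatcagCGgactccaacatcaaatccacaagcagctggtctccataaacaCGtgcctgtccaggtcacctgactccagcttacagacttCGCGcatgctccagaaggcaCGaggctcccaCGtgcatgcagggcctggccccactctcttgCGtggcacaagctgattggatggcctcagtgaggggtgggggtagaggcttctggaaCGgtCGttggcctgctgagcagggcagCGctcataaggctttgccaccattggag
Fkbp6: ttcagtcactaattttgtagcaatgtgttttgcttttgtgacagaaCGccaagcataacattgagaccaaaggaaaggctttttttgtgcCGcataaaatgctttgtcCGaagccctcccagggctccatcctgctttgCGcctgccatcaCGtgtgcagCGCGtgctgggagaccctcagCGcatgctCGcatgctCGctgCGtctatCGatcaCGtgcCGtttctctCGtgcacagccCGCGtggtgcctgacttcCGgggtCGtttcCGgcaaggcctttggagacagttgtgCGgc
Dnmt3l: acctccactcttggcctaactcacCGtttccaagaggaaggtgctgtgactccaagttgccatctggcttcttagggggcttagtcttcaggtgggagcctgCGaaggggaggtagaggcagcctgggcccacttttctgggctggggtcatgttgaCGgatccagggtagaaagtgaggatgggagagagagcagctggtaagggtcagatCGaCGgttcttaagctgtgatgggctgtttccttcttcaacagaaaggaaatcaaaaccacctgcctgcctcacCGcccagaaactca
Tex19.1: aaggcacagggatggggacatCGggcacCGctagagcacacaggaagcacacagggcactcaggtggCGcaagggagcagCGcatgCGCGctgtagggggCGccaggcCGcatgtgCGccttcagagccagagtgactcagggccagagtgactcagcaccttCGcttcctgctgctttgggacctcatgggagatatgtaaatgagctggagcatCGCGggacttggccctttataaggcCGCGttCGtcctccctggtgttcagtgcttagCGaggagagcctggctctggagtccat
Tex101: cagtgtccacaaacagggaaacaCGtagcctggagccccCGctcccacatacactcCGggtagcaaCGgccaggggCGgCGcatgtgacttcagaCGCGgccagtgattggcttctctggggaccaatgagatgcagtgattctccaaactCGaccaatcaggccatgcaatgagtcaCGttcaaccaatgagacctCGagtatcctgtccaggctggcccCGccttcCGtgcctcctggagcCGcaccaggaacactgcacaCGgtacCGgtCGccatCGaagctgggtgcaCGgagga
Magea5: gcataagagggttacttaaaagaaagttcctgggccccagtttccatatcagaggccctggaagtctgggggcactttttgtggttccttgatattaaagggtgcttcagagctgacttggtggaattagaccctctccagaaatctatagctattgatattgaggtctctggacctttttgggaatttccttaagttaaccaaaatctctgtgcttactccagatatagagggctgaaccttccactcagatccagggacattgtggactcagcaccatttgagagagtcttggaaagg
1700080O16Rik: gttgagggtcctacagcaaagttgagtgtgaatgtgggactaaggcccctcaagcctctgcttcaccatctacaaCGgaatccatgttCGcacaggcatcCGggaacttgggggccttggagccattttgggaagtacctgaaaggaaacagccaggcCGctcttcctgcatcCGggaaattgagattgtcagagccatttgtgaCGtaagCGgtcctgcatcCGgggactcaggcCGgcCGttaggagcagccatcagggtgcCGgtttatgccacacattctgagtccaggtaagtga
The number of CpG dinucleotides in these windows ran from 0 in Magea5 and 6 in Dnmt3l to 19 in Tex101 and 21 in Fkbp6, with 10 in Tdrd9, 11 in 1700080O16Rik, 16 in Tex19.1 and 17 in Asz1. The letters GCATGCGC, a core of the site of the methylation-sensitive factor NRF1, were searched on both strands and were found in Tdrd9, Fkbp6 and Tex19.1. Over the germline list they were found in 9 of 25 matched promoters of genes higher in TKO under TSA and in 1 of 25 of those not called, beside 2.71% of all 32851 RefSeq promoters of that length and 5.11% of the 12265 matched to tested genes. The letters CACGTG, bound by MAX and its partners, were found in 8 of 25 and 9 of 25 of the same promoters, beside 7.15% of all and 10% of those of tested genes. The letters TTCCCGC, an E2F6 motif, were found in 8 of 25 and 4 of 25, beside 4.6% of all and 8.35% of those of tested genes. Also searched were CCGGAAG (GABPA), found in 3 of 25 and 3 of 25, GGGCGG (SP1), in 12 and 15, and AAGATGGC (YY1), in 1 and 3. These were in 8.86%, 35.7% and 2.75% of all promoters and in 16.7%, 63.1% and 4.17% of those of tested genes. The median ratio of observed to expected CpG was 0.676 in germline promoters of genes called higher and 0.633 in those not called. It was 0.384 over all promoters, below both germline medians, and 0.741 over the matched promoters of tested genes, above both. A match to letters is a description of the window, and binding was not measured in these libraries.

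Under TSA, TKO cells had higher levels of X-linked MAGE, Rhox and Xlr genes and of many germline genes, and lower levels of genes for actin-based contraction, collagens and simple keratins. In all, 1584 genes were higher (10.0% of those tested) and 1326 were lower (8.38%), beside a median log2 fold change of 0.004 over all genes. Of the higher genes, 587 differed at least 2-fold, 223 at least 4-fold and 49 at least 16-fold. Of the lower genes, 453 differed at least 2-fold, 118 at least 4-fold and 7 at least 16-fold. Of the higher genes, 198 were below 1 CPM in wild type TSA (12.5%). By edgeR's quasi-likelihood test without wild type TSA replicate 1, 527 genes were higher and 414 lower, and without TKO TSA replicate 2, 772 were higher and 584 lower. Without TKO TSA replicate 1, 844 were lower.

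**Figure D2:**
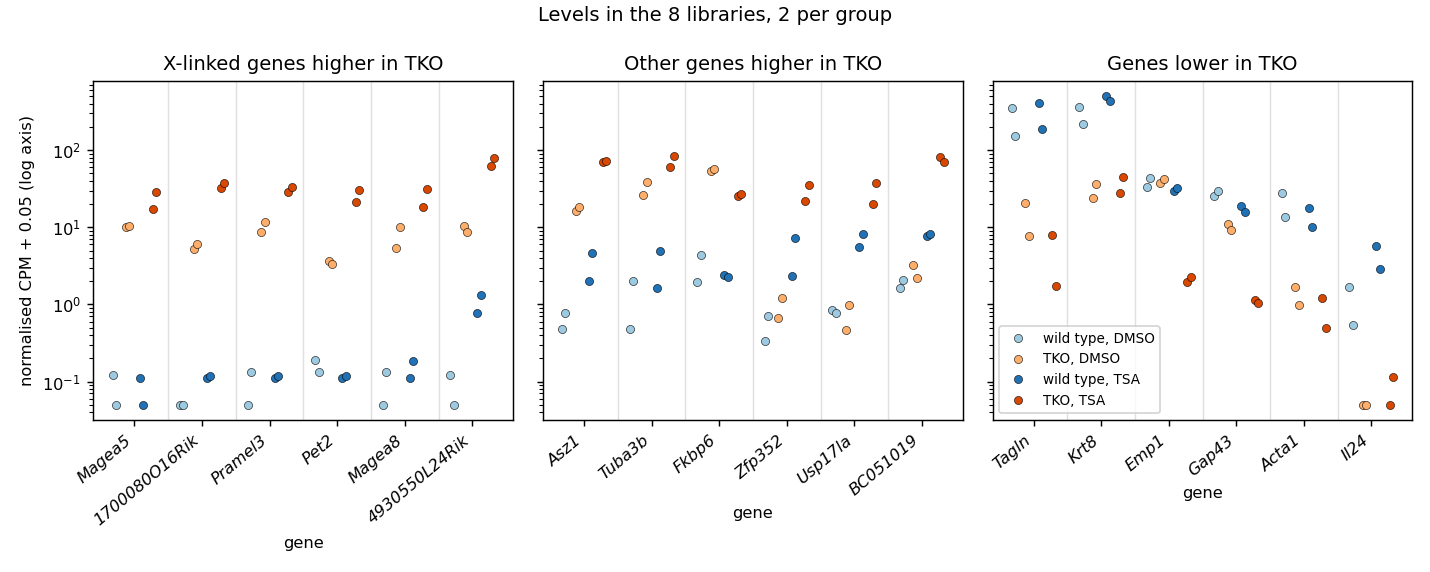
Normalised CPM plus 0.05 on a log axis (vertical) for 18 genes (horizontal) in each of the 8 libraries, 1 point per library and colours for the 4 groups. The X-linked genes on the left are near the floor in wild type cells in both treatments, except 4930550L24Rik in wild type TSA, and Emp1 on the right is low in the TKO TSA libraries and not in the TKO DMSO libraries.

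The MAGE genes of the Magea family, cancer-testis antigens of which some act as adaptors of ubiquitin ligases, showed the largest differences. All 7 tested Magea genes were higher, beside 10.0% of all genes, with a median fitted log2 fold change of 8.23. That median is the value of Magea6, which had no count in wild type TSA, so its size depends on how the fit treats zeros. Against a floor of 3 counts per library Magea6 was at least 13.2-fold higher. Magea5 had 1 and 0 counts in the wild type TSA libraries and 251 and 453 counts in the TKO TSA libraries, which are 16.98 and 28.5 CPM. The ratio was 713, with a 95% exact counting interval of 128 to 28192 that covers counting error only. The log2 fold change was 9.13 ± 0.55 (SE, edgeR adjusted p 3.32e-06). This SE is narrower than the counting interval and does not measure the error at so few counts. Over the alternative fits the log2 fold change ran from 8.35 to 11.3. Magea8 had 1 and 2 counts against 269 and 493 counts, and TKO was at 18.2 and 31.0 CPM. Magea2, Magea3 and Magea6 had no count in either wild type TSA library. Magea2 had 48 and 99 counts in TKO TSA and was at least 24.5-fold higher against a floor of 3 counts per library. These genes are near-identical copies, so the division of reads among them is uncertain.

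Other X-linked genes of the germline and placenta followed the same direction. Pramel3, of a family named after the melanoma antigen PRAME, had 1 count in each wild type TSA library and was at 28.6 and 32.8 CPM in TKO TSA (edgeR adjusted p 6.41e-07). Pet2, first described as a transcript of plasmacytomas, had 1 count in each wild type TSA library and was at 21.0 and 30.8 CPM in TKO TSA (edgeR adjusted p 8.73e-07). Gm595 had 2 and 1 counts against 168 and 193 counts. For each of these genes the groups were separated by more than 100 counts. 4930550L24Rik was at 0.733 and 1.29 CPM in wild type TSA and at 63.3 and 79.0 CPM in TKO TSA, with a log2 fold change of 6.14 ± 0.25 (SE, edgeR adjusted p 6.41e-07). In the list of cancer-testis genes 23 of 26 tested genes were higher by edgeR (88.5%, beside 10.0% of all genes). The list had 0 lower by edgeR, 0 lower at an unadjusted p below 0.05 and 0 by DESeq2. Its median log2 fold change was 3.02, and all 23 are among the 25 members on the X chromosome.

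The Rhox genes encode homeobox proteins of reproductive tissues, and 10 of 13 tested were higher (76.9%, beside 10.0% of all genes), with a median log2 fold change of 3.65. Rhox5, the member with the highest level, was at 29.7 and 49.7 CPM in wild type TSA and at 163 and 204 CPM in TKO TSA. Its log2 fold change was 2.21 ± 0.27 (SE, edgeR adjusted p 0.000459), and in DMSO it was 0.84 (edgeR adjusted p 0.0509). When edgeR tested the genotype difference between treatments, 0 of the 13 Rhox genes were called in either direction. At an unadjusted p below 0.05, 1 was more positive and 1 more negative under TSA. Rhox2b had no count in wild type TSA and was at 2.84 and 3.71 CPM in TKO TSA, at least 16.9-fold above the floor. Rhox6, Rhox9 and Rhox10, named here after their values were seen because they were not called, lie in the same cluster and had log2 fold changes of 0.62, 0.53 and 0.82. The Xlr genes, lymphocyte-regulated genes related to a component of meiotic chromosomes, were higher in 10 of 10 tested, with a median of 3.37. Xlr3c was at 1.71 and 3.19 CPM in wild type TSA and at 27.6 and 32.2 CPM in TKO TSA (edgeR adjusted p 2.04e-05). Over the 30 tested Magea, Rhox and Xlr genes, 20 were below 1 CPM in wild type TSA and 29 reached 1 CPM in TKO TSA. Reads may be shared among the copies of Rhox2 and of Xlr, so values of single members of these groups are uncertain.

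Across the X chromosome as a whole, 144 of 632 tested genes were higher (22.8%, beside 10.0% of all genes) and 44 were lower (6.96%, beside 8.38%). Of the 223 genes at least 4-fold higher, 72 were X-linked (32.3%), while the chromosome held 3.99% of the genes tested. Outside the Mage, Rhox, Xlr and Prame families, 113 of 597 X-linked genes were higher (18.9%). Tex13, an X-linked testis gene, was at 4.15 and 9.79 CPM in wild type TSA and at 50.0 and 64.4 CPM in TKO TSA (edgeR adjusted p 0.000126). On the Y chromosome 6 of 8 tested genes were higher (75%, beside 10.0% of all genes), and they are named after their values were seen. Kdm5d, a histone demethylase gene, was at a mean of 1.72 CPM in wild type TSA and at 25.2 CPM in TKO TSA, and Usp9y, a deubiquitinase gene, at 6.399 and 81.5 CPM. Eif2s3y, a translation factor gene, had a log2 fold change of 0.28 and was not called (edgeR adjusted p 0.104). All 8 had a positive difference in both treatments, and the fold changes under TSA ran from 0.28 to 3.88 on the log2 scale.

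Of the 58 tested germline genes, 28 were higher in TKO under TSA and 2 were lower, beside 10.0% and 8.38% of all genes, and the median log2 fold change was 0.66. The list holds known targets of silencing by methylation and by the repressors that act with it. Like the other lists, it was chosen with earlier results of these data known, so its counts are not independent of them. Among 18 genes of spermatogenic transcription and chromatin, 13 were higher, with a median of 1.25. Among 13 genes of the piRNA pathway, which silences transposons in germ cells, 6 were higher and 1 was lower, with a median of 0.82. Among 21 genes of the meiotic axis and recombination, 7 were higher, with a median of 0.52. Among 6 genes of translation and RNA binding, 2 were higher and 1 lower, and the median was 0.003. Without wild type TSA replicate 1, 18 members of the list were higher.

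Asz1, a piRNA pathway gene of germ cells, was at 1.95 and 4.55 CPM in wild type TSA and at 69.6 and 73.2 CPM in TKO TSA. Its log2 fold change was 4.47 ± 0.26 (SE, edgeR adjusted p 3.26e-06). Tuba3b, a testis alpha-tubulin gene, was at 1.59 and 4.89 CPM against 61.1 and 84.0 CPM, and reads may be shared with Tuba3a. Both genes were separated between the groups by over 10-fold, and both are shown in the plot of levels per library. Fkbp6, whose product assists the loading of piRNAs, was at 2.38 and 2.24 CPM in wild type TSA and at 25.1 and 27.4 CPM in TKO TSA (edgeR adjusted p 1.12e-05). Dpep3, a testis dipeptidase gene, was at 0.489 and 1.495 CPM against 10.2 and 12.4 CPM, and it was higher although it lies on distal chromosome 8, where most genes were lower. Tdrd9, a piRNA pathway helicase, was at 1.77 and 2.72 CPM against 7.44 and 7.41 CPM, and was not called without wild type TSA replicate 1 (edgeR adjusted p 0.0514). Tex101, a germ cell surface protein, was at 3.42 and 7.14 CPM against 11.8 and 15.5 CPM, and was not called without wild type TSA replicate 1 or TKO TSA replicate 2 (edgeR adjusted p up to 0.113). Tdrd1, a tudor protein of the piRNA pathway, ran the other way, at 12.3 and 8.70 CPM in wild type TSA and at 2.44 and 2.01 CPM in TKO TSA (edgeR adjusted p 0.000317). Ddx4, the germ cell helicase Vasa, was the other member lower, with a log2 fold change of -1.34 ± 0.19 (SE, edgeR adjusted p 0.0011), and is named after its values were seen.

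Some germline genes were already abundant in wild type ES cells. Tex19.1, which restrains retrotransposons in germ cells and ES cells, was at 575 and 764 CPM in wild type TSA and at 1511 and 1957 CPM in TKO TSA. Its log2 fold change was 1.37 ± 0.16 (SE, edgeR adjusted p 0.000289). Tex19.2, its neighbouring copy, was at 27.1 and 42.6 CPM against 145 and 261 CPM (edgeR adjusted p 0.000211). Dnmt3l, the catalytically inactive cofactor of Dnmt3a and Dnmt3b, was at 526 and 571 CPM in wild type TSA and at 1292 and 1012 CPM in TKO TSA (edgeR adjusted p 0.000226). For each of these genes both TKO libraries lay above both wild type libraries, as for all 1584 genes called higher. On the RPKM scale, which divides CPM by exon length in kilobases so that levels can be compared between genes, Tex19.1 went from 385 to 997, Dnmt3l from 291 to 611 and Rhox5 from 49.6 to 229.

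**Figure D3:**
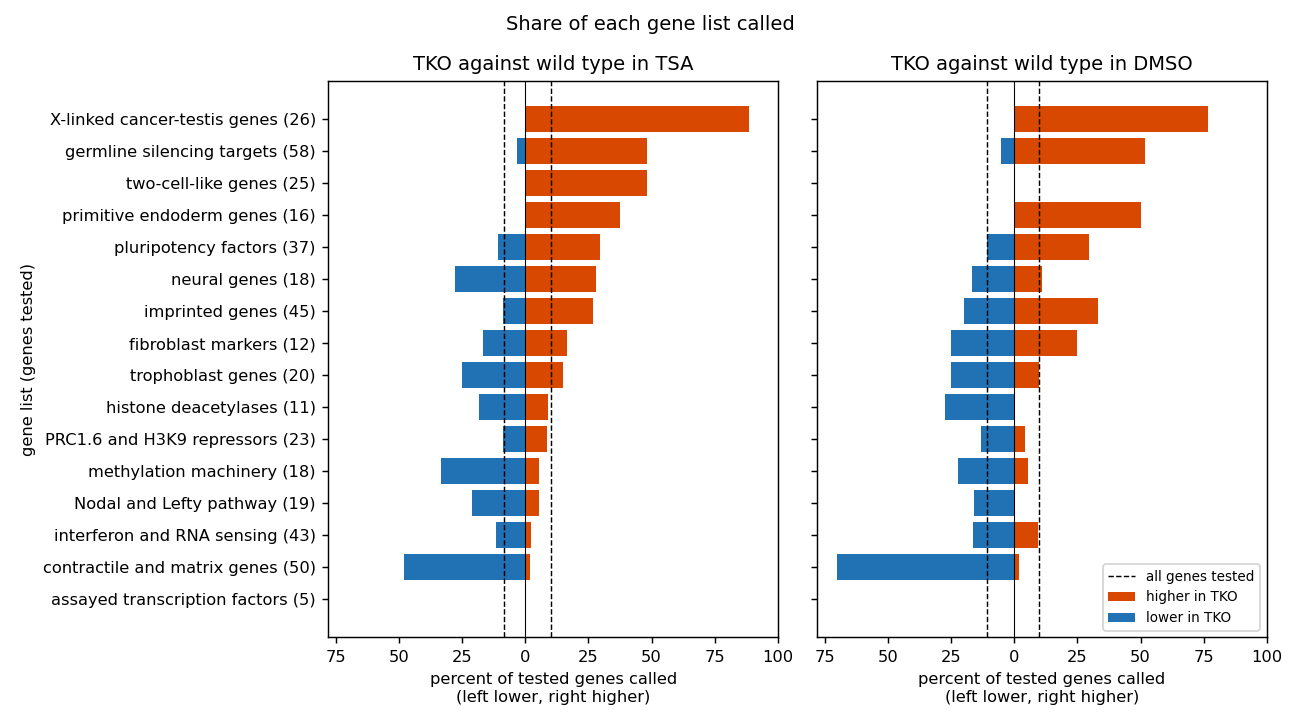
Percent of the tested genes of each list called higher in TKO (right, orange) and lower in TKO (left, blue), under TSA and under DMSO, with the number of genes tested in brackets and dashed lines at the share over all genes. The 2-cell-like list, written two-cell-like in the plot, has calls under TSA only, and the called contractile and matrix genes are nearly all lower in both. Of the cancer-testis list, named X-linked in the plot, 25 of 26 are on the X chromosome.

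Imprinted genes are expressed from the copy of one parent, and 12 of 45 tested were higher (26.7%, beside 10.0% of all genes) and 4 lower under TSA (8.89%, beside 8.38%). The median log2 fold change was 0.12. H19, a noncoding RNA of the Igf2 domain, had the largest gain in RPKM of any gene called higher. It was at 205 and 426 CPM in wild type TSA and at 2689 and 4095 CPM in TKO TSA, a log2 fold change of 3.43 ± 0.40 (SE, edgeR adjusted p 0.000329). Igf2, the growth factor gene of the same domain, was at 144 and 221 CPM against 27.8 and 43.6 CPM, a log2 fold change of -2.35 ± 0.23 (SE, edgeR adjusted p 0.000124). The 2 genes of the domain differed in opposite directions, and small parts of their exons overlap other annotated genes (3.21% for H19 and 2.31% for Igf2). Mest, a maternally methylated hydrolase gene, was at 237 and 247 CPM in wild type TSA and at 632 and 742 CPM in TKO TSA (edgeR adjusted p 1.64e-05). Plagl1, a zinc finger gene, was at 23.6 and 28.1 CPM against 65.6 and 79.7 CPM (edgeR adjusted p 0.0014). Nap1l5 was at a mean of 1.19 CPM against 2.92 CPM, with an edgeR adjusted p of 0.0223 that rose to as much as 0.129 without either wild type TSA library, without TKO TSA replicate 1 or by DESeq2. Without wild type TSA replicate 1, 7 members were higher.

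Genes that mark the rare 2-cell-like state of ES cell cultures, named after the embryo stage at which they are expressed, were higher in TKO under TSA. Of 25 tested, 12 were higher (48%, beside 10.0% of all genes) and 0 lower, with a median log2 fold change of 0.80. By edgeR 0 were lower at an unadjusted p below 0.05, and by DESeq2 10 were higher and 0 lower. In DMSO 0 were called in either direction by edgeR, with 2 higher and 2 lower at an unadjusted p below 0.05, and DESeq2 called 0 higher and 2 lower. The median there was 0.00. Zfp352, a zinc finger gene of the 2-cell embryo, was at 2.26 and 7.14 CPM in wild type TSA and at 22.1 and 34.9 CPM in TKO TSA, a log2 fold change of 2.62 ± 0.41 (SE, edgeR adjusted p 0.00168). Usp17la, a deubiquitinase gene, was at 5.56 and 8.09 CPM against 20.0 and 37.0 CPM (edgeR adjusted p 0.00114). Tdpoz4, of a family with TRAF and POZ domains, was at 0.611 and 1.903 CPM against 6.09 and 8.603 CPM (edgeR adjusted p 0.00313). The TKO libraries were above the wild type libraries for each, as for every gene called higher. In DMSO the 3 genes were at means of 0.467, 0.757 and 0.157 CPM in wild type and 0.890, 0.678 and 0.180 CPM in TKO. The difference between treatments was itself tested, and 0 of the 25 genes passed the interaction test of edgeR in either direction. At an unadjusted p below 0.05, 10 were more positive and 0 more negative under TSA, and DESeq2 called 3 more positive and 0 more negative. Without wild type TSA replicate 1 or TKO TSA replicate 2, 7 members were higher, and these families hold near-identical copies.

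Genes for the contractile apparatus and the extracellular matrix were lower in TKO under TSA. Of 50 tested, 24 were lower (48%, beside 8.38% of all genes) and 1 higher (2%, beside 10.0%), with a median log2 fold change of -0.66. Of 14 contractile genes 9 were lower, of 6 caveolar genes 3, and of 30 matrix and adhesion genes 12. Itgb3, an integrin gene named after its values were seen, was the single member higher (0.92, edgeR adjusted p 0.00952). The fibroblast markers, which could come from other cells in the culture, had 2 of 12 higher and 2 lower (16.7% each). Their part in the result was not tested.

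Tagln, which encodes the actin-binding protein transgelin, was at 405 and 190 CPM in wild type TSA and at 7.92 and 1.695 CPM in TKO TSA, a log2 fold change of -5.97 ± 0.67 (SE, edgeR adjusted p 0.000254). Part of its exons (5.99%) overlaps Pcsk7. Tpm1, a tropomyosin gene, was at 913 and 652 CPM against 221 and 197 CPM (edgeR adjusted p 0.00041). Both genes were lower in both TKO libraries, as was every gene called lower, and Tagln varied more than 4-fold between the TKO libraries. Acta2, smooth muscle actin, was at 17.5 and 11.5 CPM against 3.99 and 2.14 CPM (edgeR adjusted p 0.00302). Acta1, skeletal muscle actin, was at 17.8 and 10.1 CPM against 1.15 and 0.440 CPM, and it lies on distal chromosome 8. Cav1, the main coat protein of caveolae, was at 6.29 and 5.37 CPM against 0.474 and 0.879 CPM (edgeR adjusted p 0.000339). Among collagens, 11 of 43 tested genes were lower by edgeR (25.6%, beside 8.38% of all genes) and 0 higher. At an unadjusted p below 0.05, 1 was higher, and DESeq2 called 0 higher. Col8a1 had 34 and 39 counts in wild type TSA and 0 and 2 counts in TKO TSA, a ratio of 36.0 with a 95% exact counting interval of 9.63 to 303. Col4a5 and Col4a6, neighbouring basement membrane collagen genes on the X chromosome, had log2 fold changes of -1.95 and -1.86.

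Keratins of simple epithelia were among the most abundant transcripts that were lower. Krt8 was at 498 and 430 CPM in wild type TSA and at 27.7 and 44.6 CPM in TKO TSA, a log2 fold change of -3.68 ± 0.29 (SE, edgeR adjusted p 2.11e-05). Krt18, its filament partner, was at 680 and 622 CPM against 56.3 and 94.0 CPM (edgeR adjusted p 1.96e-05). Krt7 was at 35.4 and 34.1 CPM against 2.44 and 3.202 CPM (edgeR adjusted p 3.5e-06). All 3 are on chromosome 15, whose median was -0.15, and all were lower in DMSO as well. The part of the chromosome in these differences was not tested. Of 21 tested keratin genes, 9 were lower (42.9%, beside 8.38% of all genes), and the median was -1.01. Another 2 were higher (9.52%), near the share of all genes (10.0%). Krt6a was the higher of these by fold change, at counts of 3 and 2 against 11 and 21, and was not called by DESeq2, without either wild type TSA library or without TKO TSA replicate 2 (highest edgeR adjusted p 0.131).

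Other genes with large decreases had varied roles. Il24, a cytokine gene, had 92 and 42 counts in wild type TSA and 0 and 1 counts in TKO TSA, a ratio of 132 with a 95% exact counting interval of 23.4 to 5266. Gap43, a growth cone protein, was at 18.7 and 15.6 CPM against 1.08 and 1.005 CPM (edgeR adjusted p 3.11e-06). Emp1, epithelial membrane protein 1, was at 29.6 and 32.4 CPM against 1.895 and 2.198 CPM (edgeR adjusted p 1.04e-06). In each case the libraries of the groups were far apart. Psca, a prostate stem cell antigen encoded on chromosome 15, was at 4.703 and 3.06 CPM against 0.0677 and 0.314 CPM. Cdh13, a cadherin anchored by lipid and located on distal chromosome 8, was at 8.98 and 4.42 CPM against 0.744 and 0.126 CPM. S100a7a, a calcium-binding protein, had 34 and 30 counts against 0 and 4, and Stmn4, of the stathmin family of microtubule regulators, had 42 and 37 counts against 2 and 3. By RPKM the genes lower with the largest losses were Krt18 (465 to 53.7), Cox4i1 (995 to 693), Krt8 (257 to 20.0), Tagln (187 to 3.03) and Tpm1 (239 to 63.7). Cox4i1, a subunit of cytochrome c oxidase, lies on distal chromosome 8 and had a log2 fold change of -0.52 ± 0.09 (SE, edgeR adjusted p 0.00251). The median of that stretch was -0.57, and its part in this difference was not tested. H3f3b, which encodes the replacement histone H3.3, had one of the largest RPKM gains, at 689 and 795 CPM in wild type TSA and 1225 and 1292 CPM in TKO TSA (edgeR adjusted p 0.000978).

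Pluripotency factors, described here by subgroup, had 11 of 37 tested genes higher and 4 lower, beside 10.0% and 8.38% of all genes. Of 8 core factors 2 were higher and 1 lower, of 12 formative and primed genes 2 were higher and 3 lower, and of the 17 genes of the naive state 7 were higher and 0 lower by edgeR, with 1 lower at an unadjusted p below 0.05 and 0 by DESeq2. The naive genes had a median log2 fold change of 0.28. Sox3, a neural and primed-state SOX factor on the X chromosome, was at 1.099 and 1.699 CPM in wild type TSA and at 7.78 and 12.1 CPM in TKO TSA (edgeR adjusted p 0.000256). Nr0b1, an X-linked nuclear receptor of the naive network, was at 19.5 and 17.1 CPM against 82.5 and 37.5 CPM, and its TKO libraries differed by more than 2-fold. The 4 members that were lower were Dnmt3a and Dnmt3b, which are targeted here, the mesoderm factor T, and Tdgf1. T was not called without wild type TSA replicate 1 or TKO TSA replicate 1 (edgeR adjusted p up to 0.177). Pou5f1 and Sox2, members of the core, had log2 fold changes of -0.23 and 0.17 and were not called.

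The Nodal pathway keeps ES cells ready for mesoderm and endoderm, and 4 of 19 tested genes were lower (21.1%, beside 8.38% of all genes) and 1 higher (5.26%, beside 10.0%). Among ligands and antagonists, Lefty1, an extracellular inhibitor of Nodal, was at 21.2 and 7.68 CPM in wild type TSA and at 5.21 and 1.444 CPM in TKO TSA (edgeR adjusted p 0.0121). It was not called without wild type TSA replicate 1 or TKO TSA replicate 2 (edgeR adjusted p up to 0.116), and reads may be shared with Lefty2. Inhba, a subunit of activin, had 21 and 9 counts against 0 and 1. Tdgf1, the Nodal coreceptor Cripto, was at 390 and 381 CPM against 161 and 90.7 CPM (edgeR adjusted p 0.000497). Smad7, an inhibitor of signalling by the pathway, was at 71.1 and 56.9 CPM against 45.5 and 40.3 CPM. Smad7 and Inhba were also not called without wild type TSA replicate 1 or TKO TSA replicate 2, nor Inhba without TKO TSA replicate 1 (edgeR adjusted p up to 0.141 and 0.112). Among the targets, Eomes, a T-box factor, was the member higher, at 6.05 and 5.03 CPM against 12.4 and 13.1 CPM (edgeR adjusted p 0.00418).

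Of 16 tested genes of primitive endoderm, 6 were higher by edgeR (37.5%, beside 10.0% of all genes), and the median log2 fold change was 0.91. By edgeR 0 were lower, with 0 lower at an unadjusted p below 0.05 and 0 by DESeq2. Lama1, a laminin chain of basement membranes, was at 68.5 and 78.9 CPM in wild type TSA and at 257 and 270.3 CPM in TKO TSA, a log2 fold change of 1.84 ± 0.10 (SE, edgeR adjusted p 2.06e-06). Sox17, an endoderm transcription factor, was at 2.44 and 4.15 CPM against 13.5 and 13.7 CPM, and Gata6, another, at 1.22 and 1.495 CPM against 3.18 and 4.83 CPM. Gata6 was not called without wild type TSA replicate 1 or TKO TSA replicate 2 (edgeR adjusted p up to 0.109). Afp, the fetal serum protein, had 1 and 7 counts against 51 and 83 counts. Cubn, an endocytic receptor, was at 3.79 and 5.64 CPM against 14.9 and 15.1 CPM. Each of these genes was higher in both TKO libraries, as was every gene called higher. Sox17, Gata6, Afp and Cubn are also in the summed endoderm markers given above, so that sum is not separate from them. The part of endoderm-like cells in the result was not tested.

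Of 20 tested trophoblast genes, 3 were higher and 5 lower (15% and 25%, beside 10.0% and 8.38% of all genes). The summed trophoblast markers were at 41.9 and 54.9 CPM in TKO TSA against 81.1 and 85.7 CPM in wild type TSA. Cdx2 and Krt7 are in that sum as well as in the list, so the sum is not separate from the list. Of the 6 markers tested, 1 was higher and 2 were lower. The part of trophoblast-like cells in the result was not tested. Cdx2, a factor of the trophectoderm, was at 25.0 and 21.3 CPM in wild type TSA and at 7.78 and 4.33 CPM in TKO TSA (edgeR adjusted p 0.00327), and Krt7, Krt8 and Krt18, described above, are in the list. Of 18 neural genes 5 were higher and 5 lower. Nefm, the middle neurofilament subunit, was at 6.78 and 5.17 CPM against 48.0 and 65.6 CPM (edgeR adjusted p 0.00021), although 33.3% of its exon bases overlap a neighbouring transcript. Nefl, the light subunit, was at 69.4 and 44.7 CPM against 146 and 162 CPM (edgeR adjusted p 0.0092). The neurofilament genes were higher while Gap43 was lower, so the neural genes did not differ in a common direction.

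The methylation machinery and the repressors and deacetylases that act with it were examined next, beside 10.0% higher and 8.38% lower over all genes. Of 18 tested members of the machinery, 1 was higher, Dnmt3l, and 6 were lower, among them the 3 targeted genes and the methyl-CpG readers Mbd1 and Zbtb38. Mbd1, named after its values were seen, had a log2 fold change of -0.56, while Zbtb38 was not called without wild type TSA replicate 1, TKO TSA replicate 2 or either TKO DMSO library, nor in a fit of the 4 TSA libraries only (edgeR adjusted p up to 0.335). Of 23 repressors of the PRC1.6 complex and the H3K9 methylation pathway, Atf7ip and Setdb1, partners in H3K9 methylation, were higher (0.47 and 0.42), while Cbx5, which binds that mark and lies on chromosome 15, and Tfdp1, a partner of E2F6, were lower (-0.83 and -0.57). Of 11 histone deacetylase genes, the family that TSA inhibits, Hdac6 was higher (0.62, edgeR adjusted p 0.00556), and Hdac7 and Hdac10, both on chromosome 15, were lower (-1.16 and -0.72). Atf7ip, Setdb1, Tfdp1, Hdac7 and Hdac10 were not called without wild type TSA replicate 1 or without at least 1 of the other TSA libraries, with edgeR adjusted p-values of up to 0.078, 0.0806, 0.075, 0.0823 and 0.139. Of 43 genes of the interferon response and RNA sensing, 1 was higher, H2-K1, a class I antigen-presenting molecule, and 5 were lower, with a median of -0.23. H2-K1 was not called without TKO TSA replicate 2 (edgeR adjusted p 0.0652). Psmb8, an immunoproteasome subunit, was at 6.47 and 5.64 CPM in wild type TSA and 1.083 and 1.82 CPM in TKO TSA (edgeR adjusted p 0.000608), and Ifit2, an antiviral effector, at 18.3 and 20.3 CPM against 9.54 and 7.41 CPM. Depending on the library left out, 2 to 7 interferon genes were lower, with 2 without wild type TSA replicate 1 or TKO TSA replicate 2 and 3 without either of the other TSA libraries, and the replicate block gave 10.

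Other families showed how far the difference reached. Among 347 zinc finger genes named Zfp, 15 were higher and 35 lower (4.32% and 10.1%), beside 10.0% and 8.38% of all genes. Of 61 histone genes 3 were higher and 8 lower, and of 94 genes named Rps or Rpl 5 were higher and 2 lower. Clustered protocadherins, whose promoter choice depends on methylation, gave 0 calls among 22 Pcdhg genes and 0 among 6 Pcdhb genes by edgeR, with 1 lower in each at an unadjusted p below 0.05 and 0 by DESeq2. Of 6 Pcdha genes Pcdhac2 was higher (1.65, edgeR adjusted p 0.0247), but 52.7% of its exon bases overlap other Pcdha genes, and it was not called by DESeq2 or when any of the 4 TSA libraries was left out (edgeR adjusted p up to 0.236). Of 13 olfactory receptor genes 3 were higher, at low levels. When genes were grouped by the letters before the first digit of the symbol, the groups with the largest shares higher were Xlr, Rhox, Tex and Cacna. The latter, one of 248 such groups and picked for its share, are voltage-gated calcium channel subunits, with 5 of 12 higher by edgeR and 3 by DESeq2. In DMSO 0 of these 12 were called by edgeR, with 1 higher at an unadjusted p below 0.05 and 0 by DESeq2, and the interaction test called 1 of 12. The groups with the largest shares lower were Setd (4 of 9), Krt, Anxa (4 of 10) and Exosc (4 of 10).

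The genotype comparison in DMSO used other libraries and shows whether genes that differed there also differed under TSA. In DMSO 1523 genes were higher in TKO (9.63% of those tested) and 1698 lower (10.7%). Of the 1523, 699 were higher under TSA (45.9%, beside 10.0% of all genes), 12 were lower and 812 were not called, and 89.7% had the same sign. Their median log2 fold change was 0.85 in DMSO, where they were chosen, and 0.49 under TSA. Of the 1698 lower genes, 732 were lower under TSA (43.1%, beside 8.38%), 13 were higher and 953 were not called, with medians of -0.85 and -0.46. A gene called in DMSO and not under TSA is not thereby shown to differ between treatments. Of 12601 genes not called in DMSO, 872 were higher and 582 lower under TSA. Without any of wild type DMSO replicate 1, TKO DMSO replicates 1 and 2, wild type TSA replicate 1 and TKO TSA replicate 2 in turn, 338 to 458 genes were higher in both, and without the last 4 of these in turn 314 to 448 were lower in both.

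By group, 20 of 26 cancer-testis genes were higher in DMSO and 23 of 26 under TSA, with medians of 3.46 and 3.02. Germline genes were higher in 30 of 58 in DMSO, with a median of 0.85 against 0.66 under TSA. Contractile and matrix genes were lower in 35 of 50 in DMSO, with a median of -1.33 against -0.66. In the interaction test, which compares the genotype difference between treatments, 0 germline genes were more positive and 1 more negative, while 8 contractile and matrix genes were more positive under TSA and 0 more negative. At an unadjusted p below 0.05, 4 germline genes were more positive, 10 more negative, and of the contractile and matrix genes 21 were more positive and 0 more negative. DESeq2 called 1 germline gene more positive, 3 more negative, and 12 and 0 of the contractile and matrix genes. Asz1 had log2 fold changes of 4.91 in DMSO and 4.47 under TSA, Fkbp6 4.19 and 3.50, and Dnmt3l 1.07 and 1.07. Their interaction tests gave edgeR adjusted p-values of 0.784, 0.432 and 0.995. Of 180 genes that were below 1 CPM in wild type TSA, at least 1 CPM in TKO TSA and called higher, 82 were also called higher in DMSO (45.6%) and 48 were X-linked (26.7%).

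**Figure D4:**
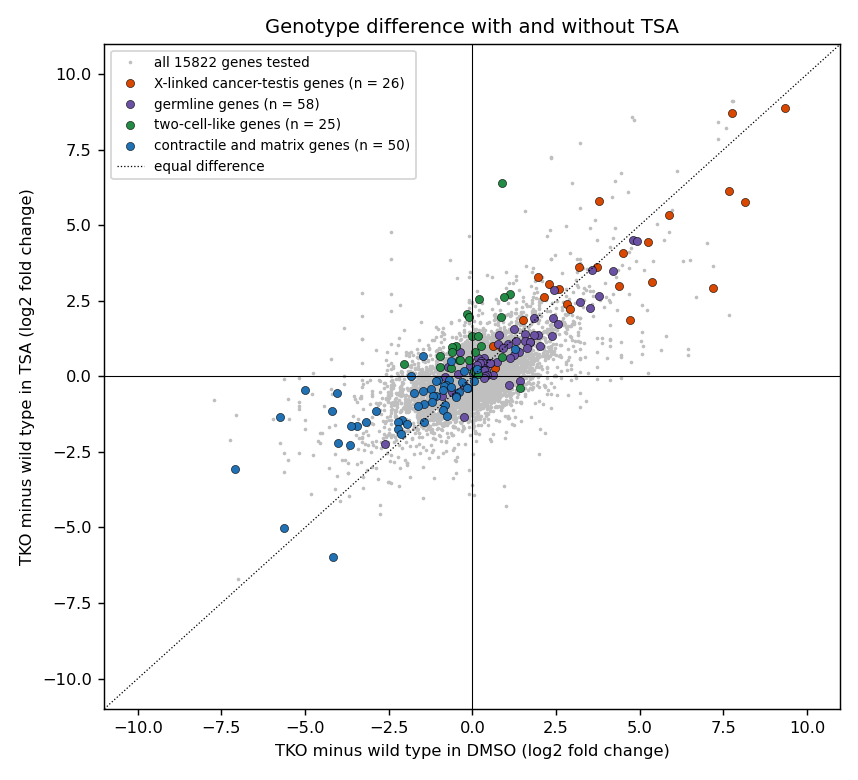
Log2 fold change of TKO minus wild type in DMSO (horizontal axis) and under TSA (vertical axis) for all 15822 genes (grey) and for 4 gene lists in colour, with a dotted line where the differences are equal. Most cancer-testis genes are high on both axes, and the contractile and matrix genes lie mostly lower left.

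The interaction test found 139 genes whose genotype difference was more positive under TSA (0.879% of those tested) and 74 whose difference was more negative (0.468%). Of these 213 genes, 104 were called in DMSO only, 55 under TSA only, 30 in both with the same sign and 24 in both with opposite signs. The number of calls depended on single libraries, with 10 without TKO DMSO replicate 2, 44 without TKO DMSO replicate 1, 52 without TKO TSA replicate 2, 53 without wild type TSA replicate 1, 72 without wild type DMSO replicate 1, 118 without wild type TSA replicate 2 and 410 without wild type DMSO replicate 2. DESeq2 called 401. Of the 23 interaction genes named in the text, 23 kept the sign of their difference without any single library. The 5 that also kept their call were Emp1, Trh, Gap43, Eomes and BC051019.

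Among genes with a more negative difference, Emp1 was at means of 38.3 and 40.0 CPM in wild type and TKO in DMSO and at 31.0 and 2.05 CPM under TSA. Its difference between treatments was -3.97 ± 0.25 (SE, edgeR adjusted p 7.13e-05). Trh, the precursor of thyrotropin-releasing hormone, was at 768 and 544 CPM in DMSO and at 91.4 and 9.89 CPM under TSA (interaction edgeR adjusted p 0.00337). Fxyd6, a regulator of the sodium pump, was at 196 and 168 CPM in DMSO and at 171 and 36.2 CPM under TSA (interaction edgeR adjusted p 0.00639). In these genes the genotypes were close in DMSO and apart under TSA. Nanos3, an RNA-binding protein of germ cell precursors, was at 5.37 and 5.72 CPM in DMSO and at 22.9 and 6.49 CPM under TSA. Ltb, lymphotoxin beta, was at 9.57 and 6.63 CPM in DMSO and at 4.65 and 0.684 CPM under TSA. Nxf2, an X-linked messenger RNA export factor of germ cells, was higher in TKO in both, with log2 fold changes of 4.71 in DMSO and 1.88 under TSA.

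Among genes with a more positive difference, BC051019 was at means of 1.798 and 2.70 CPM in wild type and TKO in DMSO and at 7.86 and 76.0 CPM under TSA. Its interaction had an edgeR adjusted p of 0.00545. Nefm was at 3.48 and 2.56 CPM in DMSO and at 5.97 and 56.8 CPM under TSA, and Sox3 at 2.89 and 3.16 CPM and at 1.399 and 9.92 CPM. Both were thus higher in TKO under TSA, while their DMSO differences were not called. Sytl4, a granule-docking protein, and Cxcl10, a chemokine, had log2 fold changes of -1.09 and -0.89 in DMSO, which were not called, and of 1.64 and 1.62 under TSA. Cav1 and Col1a1, the main chain of type I collagen, were lower in TKO in both treatments, with log2 fold changes of -7.10 and -4.19 in DMSO and of -3.08 and -1.14 under TSA. Col1a1 was not called under TSA without wild type TSA replicate 2 or TKO TSA replicate 1 (edgeR adjusted p up to 0.103).

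Some genes were called in opposite directions in the 2 treatments, 25 in all. Eomes was at means of 7.84 and 2.62 CPM in wild type and TKO in DMSO and at 5.54 and 12.8 CPM under TSA (interaction edgeR adjusted p 0.00533). Tgfbi, a secreted matrix protein, had log2 fold changes of 1.08 in DMSO and -1.32 under TSA (interaction edgeR adjusted p 0.0115). Lgals3, a galectin, and Slc40a1, the iron exporter, both named after their values were seen, had log2 fold changes of 0.88 and -1.45 in DMSO and of -0.98 and 0.59 under TSA. For Lgals3 the interaction had an edgeR adjusted p of 0.0038.

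**Figure D5:**
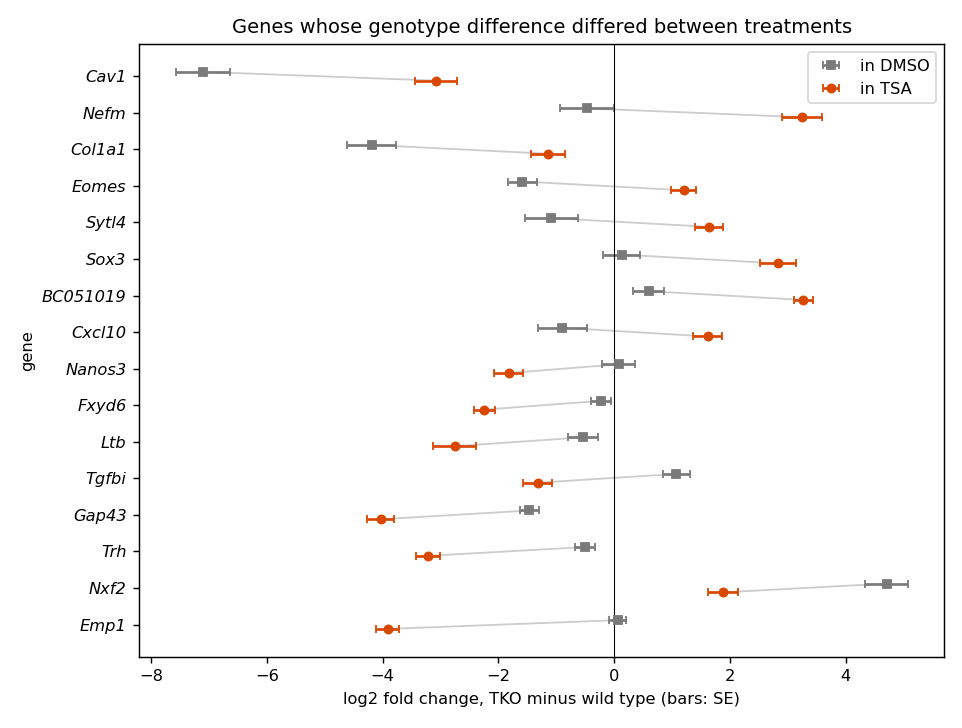
Log2 fold change of TKO minus wild type with its SE (horizontal axis) in DMSO (squares) and under TSA (circles) for the 16 genes named for the interaction (vertical axis). A grey line joins the 2 values of a gene, and Eomes and Tgfbi lie on opposite sides of 0 in the 2 treatments.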

How the data were processed

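RNA was depleted of ribosomal RNA and sequenced as paired reads after a strand-directional library preparation, per the labels' protocols. The authors deposited a table of raw counts per gene for 8 libraries, with exon coordinates and summed exon lengths in bases as a second deposited quantity (length, used for RPKM). The submitters' processing notes name TopHat2 2.0.13, featureCounts 1.4.5-p1, edgeR 3.22.3 and the build mm10, without order or settings, so the use of strand and of multi-mapping reads is not given in the sources used here. Coordinates are those of the deposited table.

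Total counts were 15335733 and 13591245 in wild type TSA and 14241830 and 15002893 in TKO TSA, and 13280631 to 15542527 over the 8 libraries. A floor of 3 counts was 0.183 to 0.204 CPM in the TSA libraries, and floors and intervals cover counting error only. Replicates differed by more than sampling noise (chi-square per degree of freedom 5.28 to 12.2) and correlated across genes with an r of 0.988 to 0.992.

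The 23420 genes were filtered with filterByExpr, scaled by TMM factors and tested with edgeR 4.0.16 in R 4.3.3 by the quasi-likelihood test, in 1 fit whose 4 coefficients are the group means. The model leaves 4 residual degrees of freedom, and its common biological coefficient of variation was 10.3%. Tests were two-sided, with Benjamini-Hochberg adjustment over all genes tested, and were tested on simulated data. An exact permutation test of 2 against 2 libraries cannot go below a p of 0.333, so p-values rest on spread shared across genes and measure the spread between these libraries. The SE of a fold change is its size over the square root of F. DESeq2 1.42.0, other scalings and filters, a replicate block, a fit of the 4 TSA libraries only and the omission of each library were alternatives, and the omission of chromosomes 8, 15, 17 and Y was chosen after seeing the data.

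The members and gene lists were chosen with earlier results of these data known. Genes are named by a rule: the 10 largest called changes in each direction with at least 1 CPM and no overlap, the 5 largest changes in RPKM, the targeted genes, at most 5 called genes per list or family, and the 8 largest interactions each way. Other named genes were chosen after their values were seen.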

Additional observations from a re-analysis of the deposited data

Results flagged for a closer look

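The genes below had a genotype difference that itself differed between TSA and DMSO in the interaction test of edgeR. Each value is the log2 fold change of TKO minus wild type under TSA minus that in DMSO. More positive under TSA were Cav1 (4.02), Nefm (3.71), Col1a1 (3.05), Eomes (2.79), Sytl4 (2.72), Sox3 (2.70), BC051019 (2.67), Cxcl10 (2.51), the olfactory receptor pseudogene Olfr1372-ps1 (2.35) and Nefl (2.32). Smaller positive values were found for Dnmt3b (1.33), Mest (0.94) and Rps6ka6, an X-linked kinase gene (0.93). More negative under TSA were Emp1 (-3.97), Nxf2 (-2.83), Trh (-2.71), Gap43 (-2.57), Tgfbi (-2.40), Ltb (-2.22), Fxyd6 (-2.01), Nanos3 (-1.90), Tdgf1 (-1.63) and Rps6, a small-subunit ribosomal protein gene (-0.85).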

How the results depend on the processing

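All 140 named genes kept their direction in every alternative run that tested them. Of the 16 runs, 99 genes kept their call in all that tested them, and 128 in those that left out no library. With a filter of 1 CPM 135 of the 140 were tested, and in the fit of the 4 TSA libraries 138. Counts under TSA fell most without wild type TSA replicate 1, and those in DMSO and of the interaction without TKO DMSO replicate 2. Leaving out each library in turn gave 941 to 3443 called genes under TSA (527 to 1901 higher, 414 to 1570 lower), 1458 to 3330 in DMSO and 10 to 410 for the interaction. Genes called in both treatments ranged from 338 to 747 higher and 314 to 804 lower. List counts ranged from 18 to 31 germline genes higher, 7 to 15 of the 2-cell-like list, 7 to 12 imprinted genes and 2 to 7 interferon genes lower, and the germline median from 0.57 to 0.96. The interaction gave 488 genes without the low-count filter, 401 by DESeq2's Wald test and 633 with the replicate block, which gave 10 interferon genes lower. The block gave 4097 genes under TSA. Deviations of same-numbered libraries of the TSA groups correlated with an r of 0.325 (0.0673 to 0.325 over all pairs of groups), and the labels give only a shared number. The cause of these shifts was not tested. Scaling by total counts moved the share higher among called genes from 54.4% to 47.7%, and upper quartile scaling to 45.7%. Folds of genes with few counts in a group are uncertain at this depth. Where a group had 3 counts or fewer over its libraries, a printed ratio has a counting interval or is a lower bound.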
